A study of Mus musculus with 1 sample.

Results

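The conventional dendritic progenitor-like cells of control mouse bone marrow were 154 of the 7645 cells that passed the cell filter in 1 single-cell RNA library, a share of 2.01% (exact 95% Clopper-Pearson interval 1.71 to 2.35%). They were chosen by their own transcripts: at least 1 unique molecular identifier (UMI, a tag that counts each captured RNA molecule) of both H2-Aa and H2-Eb1, at least 1 UMI of Plbd1, Batf3 or Xcr1, and none of Cd79a, Ebf1, Cox6a2 or Upb1. Since these 9 genes chose the cells, their levels are given as a description and support nothing. The same holds for every other gene of the same cells, because genes that go with class II select with it. With 1 library per condition no comparison here has a test, and all intervals cover counting error of UMIs or cells only.

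The library, labelled WT_HSPC, holds lineage-negative cKit+ bone marrow cells of C57BL/6 Brd9fl/fl mice, in which both Brd9 alleles carry loxP sites and no Mx1-Cre was present to delete them. Polyinosinic-polycytidylic acid (pIpC), which induces the Mx1 promoter through interferon, was given as 3 doses of 20 mg/kg on alternate days, and cells were taken 8 weeks later. The sample labels describe donor CD45.2(+) marrow in CD45.1(+) recipients, while the description of the series gives primary mice dosed 4 weeks after birth. Which of these applies was not settled, nor how many mice were pooled. The gate had removed cells with surface CD3, B220, Gr-1, CD11b or Ter119, so the dendritic cells seen here are those that such a gate leaves. The Brd9-deleted library was not analysed here.

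Conventional dendritic cells take up antigen and show its peptides to T cells on MHC class II molecules. They arise in bone marrow from Flt3-bearing progenitors, and 2 main types are told apart. Type 1 cells depend on Irf8 and Batf3, carry Xcr1 and Clec9a and excel at cross-presentation to CD8 T cells, whereas type 2 cells carry Sirpa and depend more on Irf4. Plasmacytoid dendritic cells, marked by Siglech and dependent on Tcf4, are a separate lineage specialised in interferon production.

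The class II genes that chose and describe these cells lie close together. Of the 15 genes in the class II presentation list, 9 lie on chromosome 17 between 34092340 and 34341412 (GRCm38, GENCODE M21), a span of 249 kb. H2-Aa (chr17:34282744-34287823, minus strand) and H2-Ab1 (chr17:34257689-34269419, plus strand) encode the alpha and beta chains of I-A, and H2-Eb1 (chr17:34305867-34316674, plus strand) encodes the beta chain of I-E. RefSeq promoters (GRCm38.p6, 250 bases before to 50 after each start) matched 11 of the 15 genes. The Y box, the element bound by NF-Y in class II promoters, was searched as CTGATTGG on both strands and stood in 4 of these 11, against 4.10% of all 32851 promoters. The stretches around it are shown because they belong to genes of the list with very different levels in these cells. Capitals mark the Y box, and each stretch runs 5′ to 3′ on the gene's own strand.
H2-Aa (chr17:34287837-34287934, minus strand): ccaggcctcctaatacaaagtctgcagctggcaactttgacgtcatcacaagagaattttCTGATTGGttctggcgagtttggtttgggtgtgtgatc
H2-Eb1 (chr17:34305745-34305842, plus strand): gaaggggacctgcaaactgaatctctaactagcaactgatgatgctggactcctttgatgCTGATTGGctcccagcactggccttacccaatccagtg
H2-Eb2 (chr17:34325512-34325609, plus strand): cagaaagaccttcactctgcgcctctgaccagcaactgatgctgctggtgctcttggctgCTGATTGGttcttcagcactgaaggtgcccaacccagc
H2-Oa (chr17:34092273-34092370, plus strand): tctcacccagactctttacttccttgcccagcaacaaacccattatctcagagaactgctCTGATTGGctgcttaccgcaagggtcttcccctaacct
The first base of the box lay 51 bases before the start in H2-Aa, 62 in H2-Eb1, 103 in H2-Eb2 and 46 in H2-Oa. The PU.1 site searched, GAGGAAGT on both strands, stood in 1 of the 11 (Ctss) and in 3.20% of all promoters. A match is a description of letters, and genes with the box ranged in the 154 cells from 0.985 UMIs per 1000000 (CPM) for H2-Eb2 to 3949 for H2-Aa.

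The library gave 8817 barcodes, of which 7645 passed limits on UMIs, genes and mitochondrial share. Median depth was 11544.5 UMIs in the 154 cells (range 2884 to 45653) and 18875 in the 7491 other cells. Comparison groups were built from transcripts in the same way. The Flt3 Csf1r group (566 cells, median 22581 UMIs) and the Fn1 Tgfbi group (135 cells) have at least 1 UMI of each gene they are named for, and the plasmacytoid group (114 cells) has Siglech with Cox6a2 or Upb1 and neither Cd79a nor Ebf1. An erythroid group (1068 cells with Klf1, Gata1 and Epor, median 33935.5 UMIs) served as a reference for UMIs of free RNA, in cells that should lack the dendritic genes.

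The rule took the 154 cells from 711 with both class II genes. Of the rest, 441 had no UMI of an entry gene and 116 had one but also an excluding gene. Within the 154, 137 cells had Plbd1, 123 had Batf3, 49 had Xcr1 and 43 had all 3. At the edge of the rule, 13 cells had exactly 1 UMI of H2-Aa or of H2-Eb1 and 23 had exactly 1 entry UMI in all, whereas 113 had 5 or more UMIs of both class II genes. Just outside it, 112 cells met every part of the rule except for a Upb1 UMI, and 59 of them had exactly 1. They are described below as the Upb1 cells.

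Markers outside the rule describe how far the name applies, and since they go with class II they do not test it. Of the 154, 99.4% had an H2-Ab1 UMI, 98.7% a Cd74 UMI, 92.2% an Id2 UMI and 63.0% a Flt3 UMI, against 40.4%, 9.27%, 4.49% and 3.18% of the deeper erythroid cells. Whether the erythroid UMIs, with H2-Ab1 in 40.4% and Cd74 in 9.27%, were all free RNA was not tested. Zbtb46, a factor of conventional dendritic cells, was present in 24.7% against 34.5% of erythroid cells, and after thinning to 5000 UMIs in 13.2% against 5.99%, so its unthinned share is not read as expression. For the progenitor part of the name, Kit was at 109 CPM (95% Poisson interval 95 to 124) against 87.8 in the other cells, all of them from a gate on surface cKit. Csf1r, which marks earlier shared progenitors, was at 17.2 CPM (12.0 to 24.0) against 25.2. The 33 cells with a strong neutrophil-lineage signal, described below, went against the name.

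Class II presentation chose the cells, so its high level was fixed by the rule. The 13 listed genes outside the rule summed to 13904 CPM (13742 to 14067), against 436 in the other cells, 650 in the Flt3 Csf1r group, 1524 in the plasmacytoid group and 144 in the erythroid group. Of these 13, 12 reached 50 UMIs in members and other cells together, and all 12 were at least 2-fold higher in the 154 cells, with a median ratio of 9.03 (1 CPM added to both levels). Over all 13470 genes so tested the median ratio was 0.907, and 6.70% were at least 2-fold higher and 6.63% at least 2-fold lower. That background is read only as a scale, because the rule used this contrast. The comparison groups leave out members but not Upb1 cells. For H2-Ab1 plus Cd74, the median cell was at 12.8 CPM in the plasmacytoid group and 0 in the other comparison groups. The highest plasmacytoid and Flt3 Csf1r cells, at 13880 and 24753 CPM, were Upb1 cells.

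H2-Ab1 was at 3836 CPM (7786 UMIs) against 62.9, a ratio of 61.0 (59.2 to 62.8). Cd74, the invariant chain that guards the class II groove, was at 8082 CPM (16405 UMIs) against 87.0, a ratio of 92.9 (90.7 to 95). Ciita, the master activator of class II transcription, was at 152 CPM against 2.19, a ratio of 69.3 (59.1 to 81.2). These 3 genes spread widely over the cells. H2-Ab1 ran from 0 to 223 UMIs per cell with a median of 39 and quartiles of 7 and 81.5, and Cd74 ran from 0 to 427 with a median of 91.5. No cell carried more than 3.90% of the UMIs of Ciita, H2-Ab1 or Cd74.

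The genes that load and edit peptides were higher by smaller ratios. H2-DMa and H2-DMb1, whose product exchanges peptides on class II, stood at 542 against 111 CPM and at 400 against 37.3 CPM. H2-Oa and H2-Ob, which form the inhibitor of that exchange, stood at 90.2 against 10.1 CPM and at 59.1 against 7.81 CPM. Ctss, the protease that trims the invariant chain, had a ratio of 7.49 (6.83 to 8.20), and Ifi30, the lysosomal thiol reductase, one of 5.08 (4.72 to 5.47). March1, a ubiquitin ligase that removes class II from the surface, had a ratio of 21 (17.3 to 25.5). H2-Eb2 had 2 UMIs in the 154 cells and did not reach the filter.

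**Figure D1:**
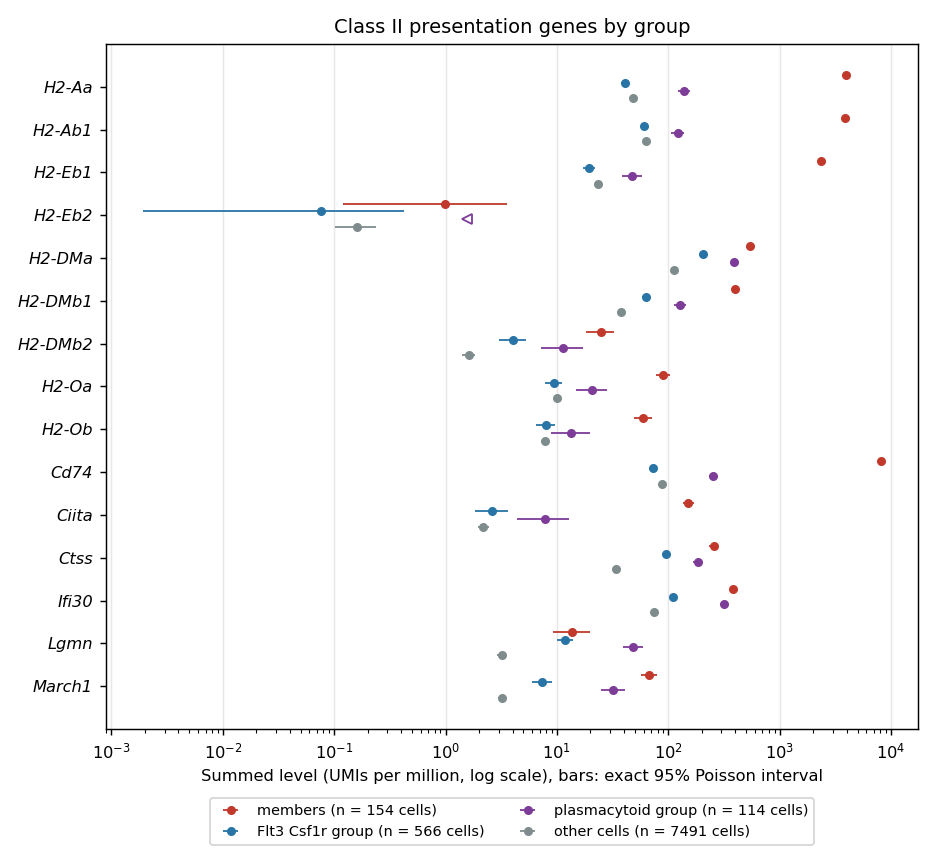
Summed level of the 15 class II presentation genes (CPM, log axis) in the 154 members, the Flt3 Csf1r group, the plasmacytoid group and the other cells; bars are exact 95% Poisson intervals, and the open triangle marks the level of 3 UMIs where a gene had none. H2-Aa and H2-Eb1 chose the members; Cd74 stood at 8082 in them and at 87.0 in the other cells.

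Genes shared by conventional dendritic cells followed class II. Of 13 listed, 12 lay outside the rule and all 12 passed the filter. In the 154 cells 11 of them were at least 2-fold higher than in the other cells and none was lower, with a median ratio of 11.1. Id2, the repressor of E proteins needed for conventional dendritic fate, was at 925 against 21 CPM, a ratio of 44.1 (41.7 to 46.8). Cst3, cystatin C, was at 10376 against 739 CPM, and Naaa, a lysosomal amidase, at 408 against 8.90 CPM. Ifi205 was at 167 against 2.04 CPM. Bcl11a was the exception, at 130 against 125 CPM, with an interval of the ratio of 0.916 to 1.17.

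The type 1 list was higher in the same way. Of 13 genes, 2 were in the rule and 10 of the other 11 had 50 UMIs. Of these, 9 were at least 2-fold higher in the 154 cells, at a median ratio of 18.2, and the tenth, Cd24a, was 1.34 times as high (1.24 to 1.44). Clec9a, a receptor for actin of dead cells, was at 105 against 2.86 CPM, a ratio of 36.7 (31.0 to 43.4). Tlr3, the sensor of double-stranded RNA, was at 85.2 against 0.701 CPM, and Cadm1, an adhesion molecule, at 63.6 against 0.467 CPM. Wdfy4, which is needed for cross-presentation, was at 262 against 27.1 CPM, and Irf8 at 1473 against 261 CPM. Cadm1 was uneven, with UMIs in 31 of the 154 cells and 58.9% of them in 10 cells. Irf8 was even, with UMIs in 146 cells and a median of 19.5 per cell.

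In the type 2 list the median gene was level, while the ratio of sums was 1.54 (1.44 to 1.64). Of its 12 genes 9 passed the filter, 3 were at least 2-fold higher and 1 lower, and the median ratio was 1.02. Sirpa, the surface marker of type 2 cells, was at 17.2 against 18.9 CPM, and 16 of its 35 UMIs came from 1 cell. Irf4 had 2 UMIs in the 154 cells, and Clec4a4 had none, where 3 UMIs would have been 1.48 CPM. Klf4, at 158 against 42.4 CPM, and Notch2, at 99.5 against 24.9 CPM, were higher, as was Cd209a with 18 UMIs in 7 cells. Mgl2 was the 1 lower gene, with 5 UMIs or 2.46 CPM against 8.32.

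The plasmacytoid list leaned slightly above the other cells, with a ratio of sums of 1.28 (1.19 to 1.38), while Siglech and Ly6d were lower than in the plasmacytoid group. Of 12 listed genes, 2 were in the rule and 8 of the other 10 passed the filter, with 2 higher, 1 lower and a median ratio of 1.31. Siglech had 2 UMIs, 0.985 CPM (0.119 to 3.56) against 174 in the plasmacytoid group, which was chosen by Siglech. Ly6d had none, at least 351-fold lower than in that group. Tcf4 was at 82.8 CPM against 442 in the plasmacytoid group and 80.8 in all other cells. Irf7 was the leading exception at 38.4 against 4.65 CPM, and 23.1% of its UMIs came from 1 cell.

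**Figure D2:**
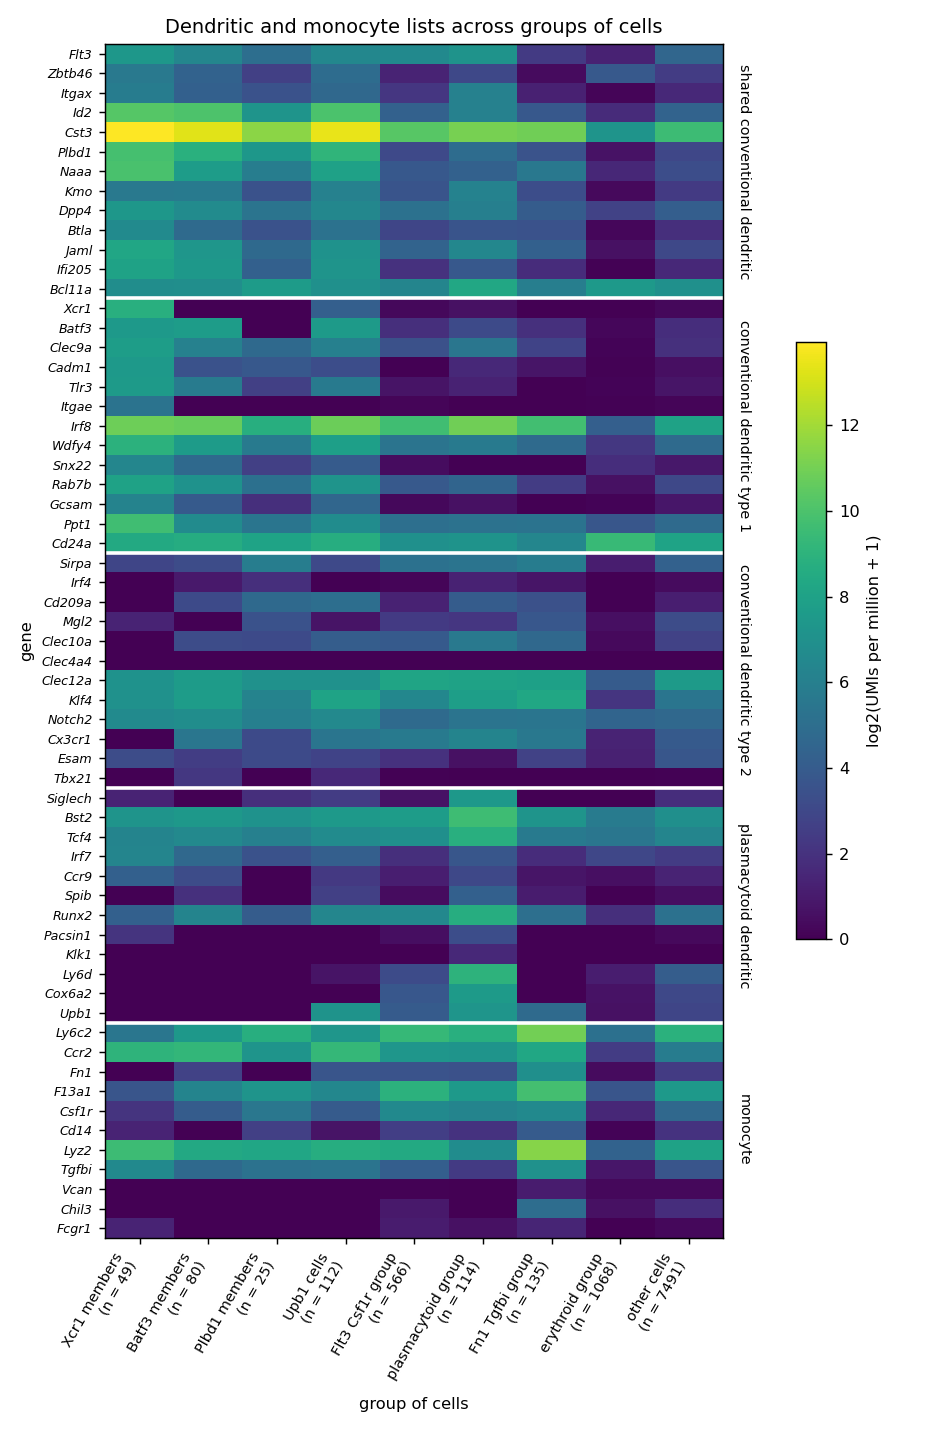
Level of each gene as log2(CPM + 1), by colour, for 5 lists (rows) in the 3 classes of members, the Upb1 cells and 5 comparison groups (columns). Naaa, Clec9a, Cadm1 and Ppt1 are brightest in the Xcr1 members, Siglech and Ly6d in the plasmacytoid group, and Ly6c2, F13a1 and Lyz2 in the Fn1 Tgfbi group.

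Transcription factors were mixed. Of 22 listed dendritic factors tested, some of which also stand in the lists above, 11 were at least 2-fold higher and 2 lower, with a median ratio of 1.68. Mycl, a Myc family member active in dendritic cells, was at 57.1 against 1.84 CPM, and Bcl6, a repressor, at 35.5 against 3.20 CPM. Spi1, which encodes PU.1, was at 301 against 142 CPM. Zeb2 at 87.7 against 203 CPM, and Cebpb at 32.0 against 81.7 CPM, were the 2 lower ones.

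Of 17 growth factor and cytokine receptor genes, 5 were at least 2-fold higher and 1 lower, with a median ratio of 1.70. Flt3 was at 97.1 CPM (84.0 to 112) against 23.3, and it spread over 97 of the 154 cells. Il6ra was at 75.4 against 25 CPM. Csf2ra, a GM-CSF receptor chain, was at 92.6 against 47.7 CPM, and Csf3r, the G-CSF receptor, was the lower one at 7.88 against 18.6 CPM. Il7r, Ifngr2 and Il10ra completed the 5, and all 37 UMIs of Il7r came from 5 cells, none with Xcr1.

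Maturation genes were sparse. Of 15 listed, 9 passed the filter, with 2 higher, 1 lower and a median ratio of 0.764. Ccr7, the receptor that brings mature dendritic cells to lymph nodes, had 1 UMI in the 154 cells, and Fscn1 and Il12b had none. Cd86, a co-stimulatory ligand, was at 36.0 against 1.35 CPM in 44 cells. Cd83, below the filter, was at 11.3 against 0.107 CPM in 16 cells.

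Pattern recognition genes had 5 of 13 tested at least 2-fold higher and none lower (median ratio 1.26). They were Tlr2, Tlr3, Tlr12, Unc93b1 and the adaptor Myd88. Tlr11, a sensor of profilin that fell short of the filter, had 38 UMIs against 8 in the 7491 other cells. Tlr7 had no UMI in the 154 cells, while Unc93b1, the chaperone of endosomal Toll-like receptors, was at 249 against 88.1 CPM. Class I presentation genes had 4 of 12 at least 2-fold higher (median ratio 1.32), Tap1 at 166 against 68.8 CPM and Tapbp at 165 against 60.3 CPM among them. B2m was at 895 against 856 CPM, with an interval of the ratio of 0.997 to 1.09.

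Of 11 migration and adhesion genes tested, 5 were at least 2-fold higher and none lower (median ratio 1.33). Ccr2 was at 497 against 56.6 CPM, a ratio of 8.78 (8.21 to 9.37), and Itgb7 at 297 against 33.3 CPM. Itgb2 and Cxcr3 were also among the 5. Of 10 interferon response genes 4 were at least 2-fold higher (median ratio 1.27), with Isg15 at 23.6 against 8.57 CPM. Cxcl10 and Ifit3 had 2 and 0 UMIs in the 154 cells.

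Against all the other cells, which include the 1068 erythroid cells, lists of other lineages were mostly lower. The erythroid list was higher against the Flt3 Csf1r and plasmacytoid groups, as given below. In the neutrophil list 8 of 9 genes were at least 2-fold lower (median ratio 0.296), in the basophil, mast cell and eosinophil list 8 of 9 (0.145), in the erythroid list 8 of 10 (0.329), in the megakaryocyte list 4 of 6 (0.405) and in the B lineage list 2 of 7 (0.676). The stem cell list had 2 of 9 lower (0.673). The T, NK and innate lymphoid list had 2 higher and 1 lower of 7 (1.42), with Cd3e at 0 UMIs. Its ratio of sums was lower, at 0.474 (0.425 to 0.527). In the monocyte list 3 of 10 genes were higher and 3 lower (0.713), but the ratio of sums was higher at 1.26 (1.21 to 1.31). Ly6c2 was at 182 against 468 CPM and F13a1 at 70.0 against 181 CPM, whereas Ccr2 was higher. The macrophage list had 5 of 7 higher (4.65), but 205 of its 388 UMIs came from 1 cell. C1qa (27 UMIs) and C1qb (26) were each found in 1 member only, and 73 of 77 Vcam1 UMIs came from 1 cell.

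The neutrophil signal was not spread evenly. In 33 of the 154 cells the neutrophil list stood between 4245 and 21002 CPM, and in the other 121 between 0 and 1600. The line between them, at 2000 CPM, was drawn after seeing the values. The 33 cells had a median of 1049 CPM of H2-Ab1 and Cd74 together, against 15900 in the 121. Their type 1 list was at a median of 871 CPM against 3719. Of the 33, 18 had Plbd1 alone of the entry genes, 13 had Batf3 and 2 had Xcr1. Doublet calls fell on 6 of the 33 and on 8 of the 121.

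**Figure D3:**
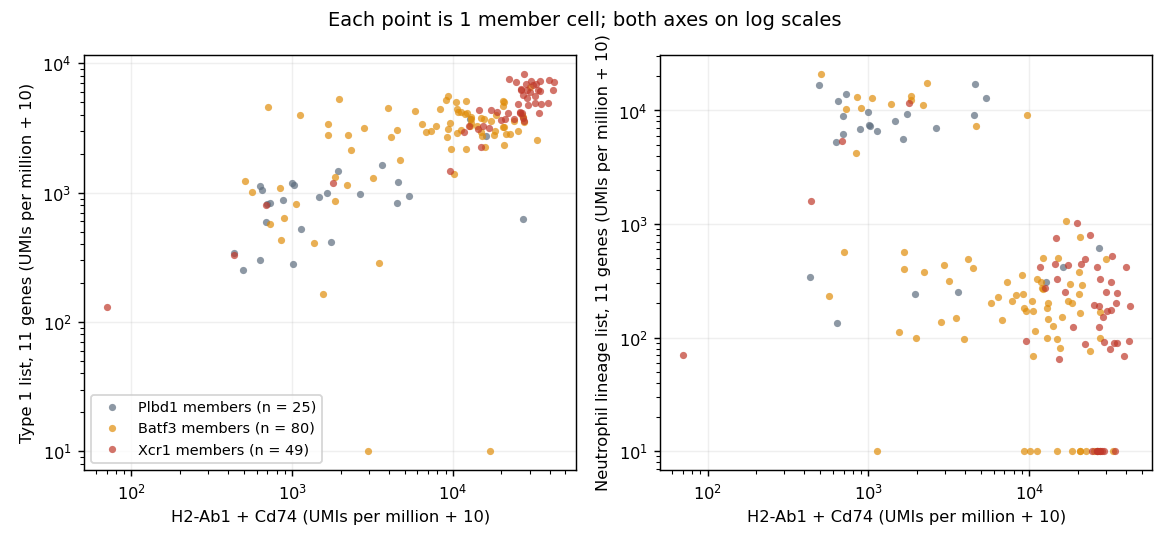
Each point is 1 of the 154 members, with H2-Ab1 plus Cd74 on the x axis against the type 1 list (left) and the neutrophil list (right), all in CPM + 10 on log axes; colours give the entry gene class. The 33 cells above 2000 on the right had a median of 1049 on the x axis, and the other 121 one of 15900.

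Cell cycle genes were lower for S phase and close to the other cells for G2 and M. All 17 S phase genes had a ratio with an interval below 1, 3 of them at least 2-fold lower (median 0.590). For G2 and M phase, 1 of 19 genes was at least 2-fold higher, none lower, and the median ratio was 0.887. Mki67 was at 387 against 382 CPM and Top2a at 368 against 381 CPM, and Kif23 was the higher one at 101 against 48.5 CPM. After each cell was thinned to 5000 UMIs, 61.6% of 151 members (53.3 to 69.4%) had a UMI of Mki67 or Top2a, against 67.9% of other cells. Unthinned, the shares were 69.5% and 82.5%. Since free RNA can give such UMIs, these shares are no count of cycling cells.

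Outside the lists, the leading genes over the other cells by the naming rule included Ckb, a creatine kinase, at 278 against 4.87 CPM, and Slamf7, a receptor of the SLAM family, at 111 against 1.88 CPM. Shtn1, Slfn5, Aif1, Pid1, Phf11b and the unnamed transcript Gm43914 also stood among the 20, with ratios between 23.5 for Aif1 and 54.1 for Gm43914. UMIs of Aif1 were present in 81.2% of the 154 cells, and those of Slfn5 in 38.3%. The lowest genes were products of other lineages. Igkc was at 18.7 against 1056 CPM, Prg2, of eosinophils, at 2.96 against 145 CPM, and Prss34, of basophils, at 26.6 against 671 CPM. Ighg2c, Jchain, S100a8, Mcpt8, Fcer1a, Pf4 and Cpa3 made up the rest of the 10.

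Of the 13470 genes, 903 were at least 2-fold higher in the 154 cells and 893 lower. The split depends on scaling. With single-cell CPM averaged it was 869 to 1574, and with mitochondrial, ribosomal protein and haemoglobin UMIs left out of the totals it was 874 to 1381. The median gene stood at -0.14 on the log2 scale of the ratio in the values given here, at -0.24 with averaged cells and at -0.23 with the reduced totals.

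Against the Flt3 Csf1r group, class II genes were at least 2-fold higher in 11 of 12 tested, shared genes in 10 of 12 and type 1 genes in 9 of 10, beside 6.75% of 9958 genes higher and 4.23% lower. The 10 leading genes were Cd74, Cadm1, H2-Ab1, Tlr3, Id2, Ifi205, Slamf7, Ciita, Ckb and Slfn5. Cadm1 had no UMI in the 566 cells, which makes it at least 281-fold higher against a floor of 3 UMIs, with an exact interval of the ratio that starts at 225. Flt3 itself was level, at 97.1 against 95.8 CPM, a ratio of 1.01 (0.867 to 1.18), and it chose that group. Irf8 was 1.84 times as high (1.77 to 1.92). Monocyte genes were lower in 5 of 8, with Ly6c2 at a ratio of 0.287 (0.258 to 0.318) and F13a1 at 0.140 (0.118 to 0.165). In the stem cell list 3 of 8 genes were at least 2-fold higher and 1, Cd34, was lower at 0.240 (0.196 to 0.291), with a list median of 1.84. Erythroid genes were at least 2-fold higher in 7 of 10 and none was lower (median ratio 3.00). The signal was uneven, with 49.5% of the members' erythroid UMIs in 10 cells.

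Against the plasmacytoid group, class II genes were at least 2-fold higher in 8 of 12, type 1 genes in 9 of 10 and shared genes in 7 of 12, beside 4.49% of 7322 genes higher and 4.41% lower. The 10 leading genes were Tlr3, Cd74, H2-Ab1, Ckb, Cadm1, Naaa, Slfn5, Ciita, Id2 and Slamf7. Irf8 was lower, at 1473 against 1960 CPM, a ratio of 0.752 (0.716 to 0.789), and so was Flt3 at 0.694 (0.574 to 0.837). Runx2 was at 48.3 against 403 CPM and Bst2 at 158 against 773 CPM. Itgax, which encodes CD11c, had a ratio of 0.404 (0.291 to 0.555). All 19 G2 and M phase genes had an interval below 1 in this comparison. Erythroid genes were at least 2-fold higher in 7 of 7 tested (median ratio 5.80). In the neutrophil list all 4 genes tested had an interval above 1, none of them past 2-fold (median ratio 1.40).

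The 154 cells differed among themselves by entry gene. The 49 cells with Xcr1 had a median depth of 11932 UMIs, the 80 with Batf3 but no Xcr1 one of 11591.5, and the 25 with Plbd1 alone one of 10125. Xcr1 and Batf3 made these classes, and genes that go with them select too, so what follows is a description. Class II genes outside the rule summed to 25981 CPM in the Xcr1 cells, 10778 in the Batf3 cells and 3252 in the Plbd1 cells.

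Between the Xcr1 and the Batf3 cells, 7 of 10 type 1 genes and 5 of 10 class II genes were at least 2-fold higher in the first, beside 3.40% of 4406 genes higher and 7.65% lower. Naaa was at 982 against 204 CPM, Ppt1, a lysosomal thioesterase, at 802 against 105 CPM, and Clec9a at 215 against 69.8 CPM. Cadm1 was at 187 against 10.5 CPM, but 9 of its 11 UMIs in the Batf3 cells came from 1 cell. Itgae, which encodes CD103, had 23 UMIs in 13 of the 49 Xcr1 cells and none in the 80 Batf3 cells, at least 13.3-fold higher. Cd86 had a ratio of 4.03 (2.37 to 7.08) and Cxcr3, a chemokine receptor, one of 4.94 (2.63 to 9.83). Irf8 and Id2 were nearly level, with ratios of 1.11 (1.03 to 1.20) and 1.18 (1.07 to 1.30).

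The genes furthest above the Batf3 cells included Dnase1l3, a secreted nuclease, with 54 UMIs against 0, Gpr141b with 80 against 4, and Cxcl9, a chemokine, with 104 against 6. Cxcl9 came from 11 Xcr1 cells, 1 of which held 42 of the 104 UMIs. In the other direction, Cx3cr1 had no UMI in the 49 Xcr1 cells and 46 UMIs in 24 of the 80 Batf3 cells, at least 8.87-fold lower. Runx2 was at 18.2 against 77.5 CPM and Ly6c2 at 43.0 against 173 CPM. Elane and Mpo, granule genes of neutrophil progenitors, had ratios of 0.0772 (0.0566 to 0.103) and 0.118 (0.0920 to 0.148). The neutrophil signal was uneven: 13 of the 33 neutrophil-high members were Batf3 cells and 2 were Xcr1 cells, and 10 cells held 69.9% of all Elane UMIs in the members. The monocyte list as a whole was split, with 2 of 5 genes at least 2-fold higher in the Xcr1 cells and 2 lower, and a ratio of sums of 1.15 (1.06 to 1.26). The stem cell list had 2 of 3 genes higher. Klf4 had a ratio of 0.638 (0.487 to 0.830). Pf4 was higher in the Xcr1 cells, at 157 against 18.2 CPM, with 64 of its 95 UMIs in 1 cell.

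Cell cycle genes were lower in the Xcr1 cells. All 16 G2 and M phase genes tested were at least 2-fold lower in the Xcr1 than in the Batf3 cells, and 9 of 14 S phase genes. Mki67 was at 159 CPM (129 to 194) in the Xcr1 cells, 541 (498 to 588) in the Batf3 cells and 327 in the Plbd1 cells. The whole G2 and M list was at 924 CPM against 3274, a ratio of 0.282 (0.258 to 0.309), and the S phase list at 772 against 1724, a ratio of 0.448 (0.404 to 0.496). Per cell, the G2 and M list had a median of 150 CPM in the Xcr1 cells with quartiles of 82.1 and 296, and one of 1748 in the Batf3 cells with quartiles of 454 and 5083. After thinning to 5000 UMIs, 13 of 49 Xcr1 cells had a UMI of Mki67 or Top2a, 26.5% (14.9 to 41.1%), against 60 of 77 Batf3 cells, 77.9% (67.0 to 86.6%). Unthinned, the shares were 42.9% and 80.0%.

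**Figure D4:**
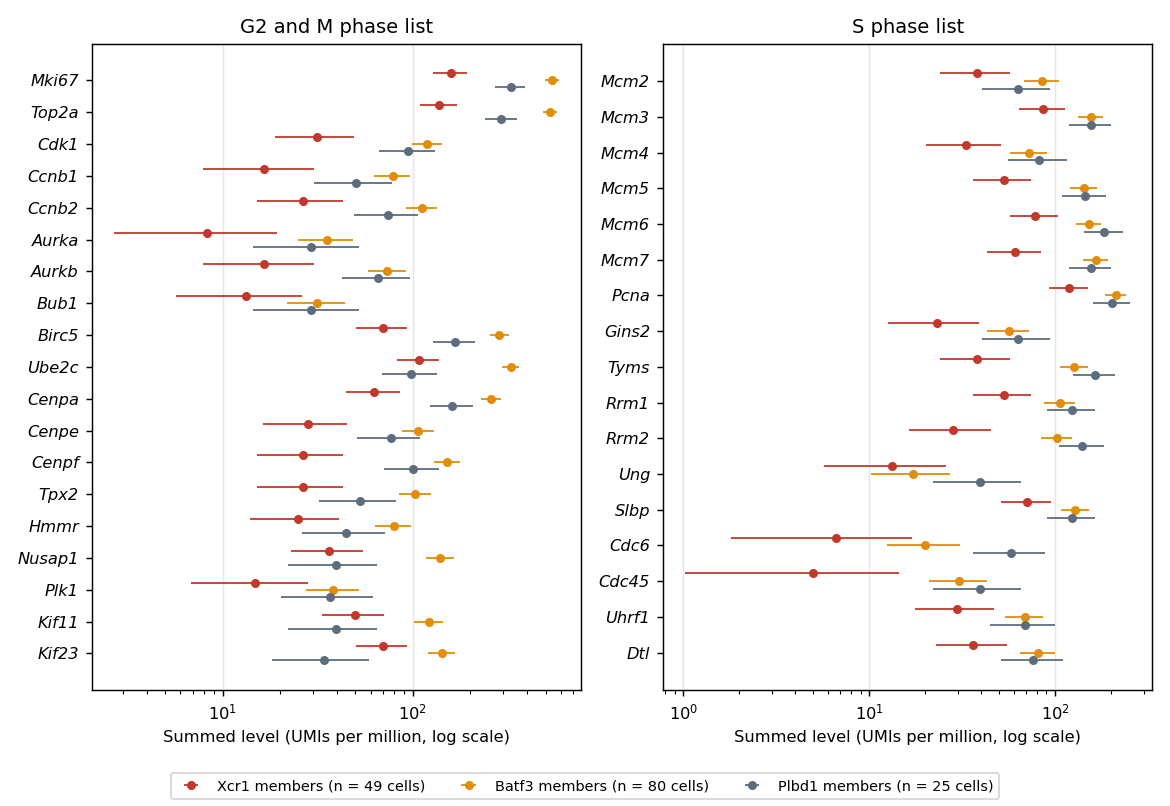
Summed level (CPM, log axis, exact 95% Poisson intervals) of the G2 and M phase list (left) and the S phase list (right) in the Xcr1, Batf3 and Plbd1 members. The Xcr1 members lie lowest for Mki67 at 159 and Top2a at 137, against 541 and 529 in the Batf3 members.

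Within the 154 cells, class II level went with other dendritic genes. Over the 154 cells of this library, the rank correlation of H2-Ab1 plus Cd74 with Naaa was 0.79, with Cst3 0.78, with Id2 0.66, with Clec9a 0.65, with Ciita 0.65 and with Irf8 0.55. It was -0.55 with Prtn3, -0.46 with Mpo and -0.43 with Top2a. All are per-cell CPM values, and class II level itself had a rank correlation of -0.29 with UMIs per cell.

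The cells were also divided by class II level. Summed over H2-Aa, H2-Ab1 and H2-Eb1, 41 cells lay at or below 1777 CPM and 113 at or above 2322. The line at 2000 CPM was set after seeing the values. On H2-Ab1 plus Cd74 the classes overlap, the low one reaching 3475 CPM and the high one starting at 2167. The 41 low cells held 17 of the 25 Plbd1 cells, 20 of the 80 Batf3 cells and 4 of the 49 Xcr1 cells. They overlap the neutrophil-high members, with 26 of those 33 among the 41. Their neutrophil genes were higher in 4 of 4 tested and their erythroid genes in 6 of 6, beside 6.39% of 5132 genes higher and 8.92% lower. Mpo was at 2192 CPM in the low and 312 in the high cells, and Car1, of erythroid progenitors, at 967 and 139. Type 1 genes outside the rule were at least 2-fold lower in 9 of 10. Class II genes were lower in 11 of 11, which restates the split, since it was made on H2-Aa, H2-Ab1 and H2-Eb1 and H2-Ab1 is among the 11. Doublet calls fell on 7 of 41 low cells, 17.1% (7.15 to 32.1%), and on 7 of 113 high cells, 6.19% (2.53 to 12.3%). Their part in the low class was not tested.

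The Upb1 cells lay outside the rule by that 1 gene. Upb1 (chr10:75401115-75441679) encodes a pyrimidine-degrading enzyme, and it was used to keep plasmacytoid cells out. In the 112 Upb1 cells, which had 1 to 7 UMIs of Upb1, Siglech was at 4.65 CPM against 174 in the plasmacytoid group. Siglech chose that group, so its high level there was set by the choice. A Upb1 cell with Siglech counts in both groups. Between the 154 members and the 112 cells, 1.0% (69) of 6898 genes were at least 2-fold higher and 0.536% lower. No class II or shared gene was past 2-fold in either direction. H2-Ab1 was at 3836 against 2799 CPM, Id2 at 925 against 1017 CPM, Cst3 at 10376 against 11321 CPM and Clec9a at 105 against 65.1 CPM.

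Type 1 genes were at least 2-fold higher in the members in 3 of 10, and G2 and M phase genes were lower by less than 2-fold. Cadm1 was at 63.6 against 8.63 CPM, Ppt1 at 301 against 110 CPM and Snx22 at 39.4 against 15.3 CPM. The G2 and M list had a ratio of 0.645 (0.620 to 0.671), with all 19 intervals below 1. Klf4 was at 158 against 266 CPM, Itgb7 at 297 against 493 CPM and Cd209a at 8.87 against 31.2 CPM. By ratios of list sums, the members were higher for the neutrophil list at 1.80 (1.72 to 1.88), the erythroid list at 1.61 (1.49 to 1.73), the interferon list at 1.83 (1.51 to 2.22), the stem cell list at 1.57 (1.31 to 1.87), the T, NK and innate lymphoid list at 1.95 (1.59 to 2.40), the macrophage list at 1.72 (1.43 to 2.08) and the maturation list at 1.5 (1.19 to 1.92). Of the 388 macrophage UMIs in the members, 205 came from 1 cell, so that ratio rests largely on this cell. Higher by less were class II at 1.22 (1.20 to 1.25), receptors at 1.10 (1.03 to 1.18) and class I at 1.07 (1.03 to 1.10). The type 1 list was level at 1.01 (0.970 to 1.05). Lower were migration and adhesion at 0.732 (0.693 to 0.773), megakaryocyte at 0.763 (0.637 to 0.913) and type 2 at 0.828 (0.756 to 0.907). So were S phase at 0.832 (0.789 to 0.877), plasmacytoid at 0.844 (0.756 to 0.943), dendritic factors at 0.853 (0.826 to 0.880) and shared at 0.940 (0.922 to 0.957). The basophil, mast cell and eosinophil list was lower at 0.153 (0.136 to 0.172), but 526 of the 843 Prss34 UMIs and 364 of the 550 Mcpt8 UMIs in the Upb1 cells came from 1 cell each.

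Nearness between cells was measured on 50 principal components from which the rule genes and all class II genes had been left out. Of the 15 nearest cells of a member, a median of 7 were members (range 0 to 14), against 0 for the other cells. The median was 13 for the Xcr1 cells, 6 for the Batf3 cells and 6 for the Plbd1 cells. In 67 of 154 members at least 8 of the 15 were members. Outside the rule 34 cells reached that mark, of which 30 had a Upb1 UMI, 4 had no entry gene and 1 lacked H2-Aa or H2-Eb1. When Upb1 cells were counted together with members, the median was 15 of 15 for the members and 14 for the Upb1 cells, and 116 of the 154 members reached 8. None of the 114 plasmacytoid cells had 8 members among its 15, and 4 of them reached 8 when Upb1 cells were counted too.

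**Figure D5:**
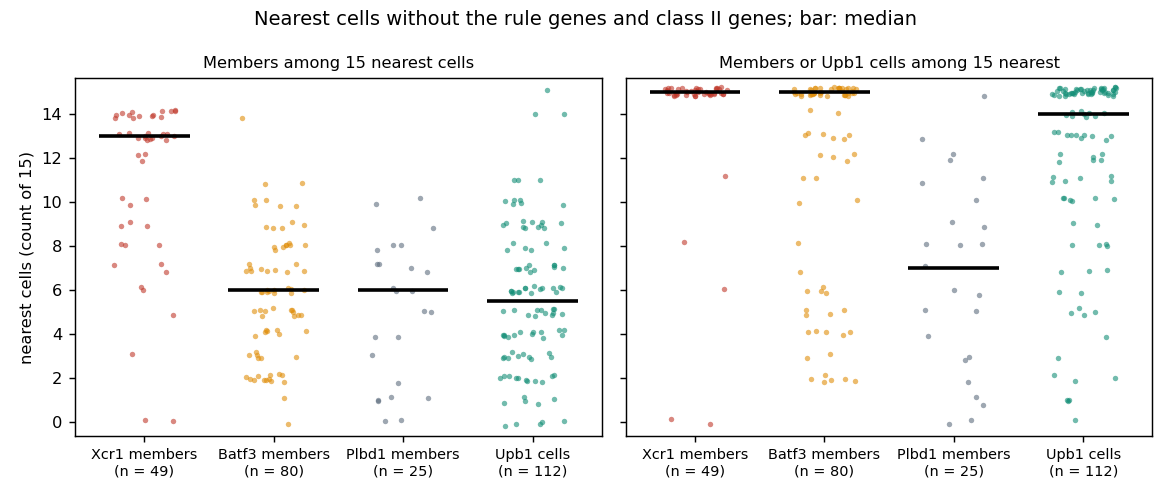
Number of the 15 nearest cells that were members (left) or members or Upb1 cells (right), 1 point per cell with small jitter, by class; bars are medians. On the left the medians are 13, 6, 6 and 5.5 for the Xcr1, Batf3, Plbd1 and Upb1 cells, and on the right 15, 15, 7 and 14.

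Shares of cells with a UMI were set against the erythroid group, which was chosen as one that should lack these genes. Its cells are deeper, and whether its UMIs are all free RNA was not tested. After thinning to 5000 UMIs, Cd74 was present in 97.4% of 151 members (93.4 to 99.3%) and in 1.40% of 1068 erythroid cells, and Id2 in 84.1% and 0.749%. Ciita was present in 47.7% and 0.281%, Clec9a in 39.1% and 0.0936%, and Irf8 in 92.1% and 5.62%. Tlr3 was present in 24.5% of members and in 0 of 1068 erythroid cells. Unthinned, Ciita was present in 68.2% of members and 0.655% of erythroid cells, and Clec9a in 57.1% and 0.375%. Siglech, at 1.32% of thinned members, and Ccr7, at 0 of 151, did not rise above what a few UMIs of free RNA can give.

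Genes of the ncBAF complex, to which Brd9 belongs, were level in these control cells. None of 7 was past 2-fold in either direction, beside 6.70% of all tested genes higher and 6.63% lower. Their median ratio was 0.892, against 0.907 over all tested genes. Brd9 was at 35 CPM (27.3 to 44.1) against 30.2 in the other cells, a ratio of 1.16 (0.902 to 1.46).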

How the data were processed

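One control library was used; the authors deposited a filtered gene by barcode matrix of UMI counts, not normalized. The submitters' processing notes name Cell Ranger 6.0.2 and mm10, and the methods a 10x 3′ kit. The sample labels also hold a bulk RNA protocol, which was not applied here. Because 3′ counts are not scaled by length, levels of different genes are not ranked. Cells with 1000 to 50000 UMIs, 1000 to 6500 genes and under 7% mitochondrial UMIs were kept. UMIs were summed over the cells of a group and given per 1000000 (CPM) with exact Poisson intervals at 95%; ratios carry exact conditional binomial intervals and shares Clopper-Pearson ones. Counts of genes past 2-fold took genes with at least 50 UMIs in both groups together, without the 9 rule genes, with 1 CPM added. Thinning drew 5000 UMIs per cell; 3 members and 96 other cells had fewer. Scrublet (scanpy 1.11.5, expected rate 6%) called 268 of 7645 cells, 14 of them members; calls were kept in the main values and left out as an alternative. Nearest cells used 2000 variable genes and 50 components. With 1 library, shared barcodes between libraries could not be counted, and fewer cells and less RNA per cell are told apart only through depth.

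Named genes are those of 24 lists, the 20 highest and 10 lowest ratios over the other cells, and the 10 highest over the Flt3 Csf1r and plasmacytoid groups, at 50 CPM or more and, for the highest, UMIs in 20% of members or more. The 10 highest and lowest between Xcr1 and Batf3 cells, the classes at 2000 CPM and the Upb1 cells were chosen after seeing values. Members, rule and lists were all chosen with earlier results of these data known. Scripts were tested on simulated data with Python 3.11.15. A few listed genes are counted with their lists but are not reported here by name.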

Additional observations from a re-analysis of the deposited data

Results flagged for a closer look

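Among the 1172 barcodes that the cell filter removed, 11 met the UMI rule for the dendritic cells, 0.939% (exact 95% interval 0.469 to 1.67%), above the 0.256% that 3 barcodes would give. They are a signal in data that no comparison used. Of the 11, 7 had 50000 UMIs or more and 4 had a mitochondrial share of 7% or more. Barcodes of such depth meet a rule of single UMIs more easily, and no value rests on them.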

How the results depend on the processing

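No paired analysis was possible because there was 1 library. Ratios over the other cells were recomputed for 70 genes: the 20 highest and 10 lowest, and the class II, shared, type 1, type 2 and plasmacytoid lists. Of 840 values, 578 stayed inside the interval of the main ratio and 20, from Bcl11a, Clec10a, Siglech, Sirpa and Tcf4, lay on the other side of 1; none of these 5 was past 2-fold. Of 46 genes at least 2-fold higher, 548 of 552 values stayed past 2-fold; the exceptions were Lgmn, Cd209a and Ccr9 with 10 CPM added, and Ccr9 with averaged cells. Of 12 lower genes 138 of 144 did; the exceptions were Prss34, Mcpt8 and Fcer1a with the rule applied after thinning, Fcer1a when no gene excludes a cell or Upb1 does not, and Mgl2 with 10 CPM added.

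Without excluding genes the rule took 270 cells, and 266 when only Upb1 no longer excluded, an alternative chosen after seeing the data. The median member then had 15 of 15 nearest cells in the set, and the G2 and M ratio was 0.257 and 0.256. It was 0.254 after thinning. The class II level of 13904 CPM became 15044 with 2 or more UMIs of each class II gene, 16382 after thinning, 15612 without doublet calls, 14667 with at least 5000 UMIs and under 5% mitochondrial, 16350 with Batf3 or Xcr1 only, 12692 with no excluding gene, 12822 without the Upb1 exclusion, 16252 as a mean over cells and 20025 with the reduced totals. Leaving out the low class II members, also chosen after seeing the data, gave 20184 CPM, 79.6% of cells with Ciita, and a median H2-Ab1 of 5435 CPM per cell against 3955.

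The 893 lower genes were 1517 after thinning, 1422 with Batf3 or Xcr1 only, 1574 as a mean over cells, 1381 with reduced totals, 2025 without the low class II members and 140 with 10 CPM added, which also left 471 of 903 higher genes and 1 of 2 plasmacytoid ones. The cause of these shifts was not tested. Depth limits the rule itself: 23 of the 154 members entered on 1 UMI, at a median of 11544.5 UMIs per cell.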

Other observations

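Of the 557 cells with both class II genes outside the rule, 112 were the Upb1 cells and 441 had no UMI of Plbd1, Batf3 or Xcr1. The stem cell list of 9 genes summed to 862 CPM in the 557 cells, against 198 in the members, 126 in the Upb1 cells and 297 in all cells that were not members. Hlf, a stem cell transcription factor named after its values were seen, was at 215 CPM in the 557 cells and 45.2 in all non-members. Igkc was at 2027 CPM, but 8360 of its 15892 UMIs came from 1 cell. No explanation was tested.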
